A study of Mus musculus with 3 samples.

Results

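Nitric oxide is made from arginine, and the genes described here are 10 that make it, feed it or compete with it: the nitric oxide synthases Nos1, Nos2 and Nos3, the cofactor gene Gch1, the arginine transporter Slc7a2, the citrulline-recycling gene Ass1, the inhibitor-clearing genes Ddah1 and Ddah2, and the arginases Arg1 and Arg2. They were taken from the array as the probes whose platform annotation names exactly 1 gene, that gene being 1 of the 10. This gave 14 probes for 10 of 19532 named genes, 6 genes with 1 probe and 4 with 2. The samples were hearts of C57BL/6 mice, and each contrast sets esmolol, which blocks beta-1 adrenergic receptors for a short time and was infused into a jugular central vein at 20 mg/kg/h, against no such treatment. The 3 contrasts were esmolol over untreated mice without sepsis, esmolol with lipopolysaccharide (LPS) over LPS alone, LPS being a bacterial cell wall component injected into the peritoneum, and esmolol with cecal ligature and perforation (CLP) over CLP alone, CLP being a model of abdominal sepsis. The series describes 6 groups of 8 animals and 30 mg of heart per RNA sample. Sex, age, the time of sampling, and whether untreated mice had a catheter or vehicle are in none of the sources used here.

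Nitric oxide synthases turn arginine into citrulline and nitric oxide, and need the cofactor tetrahydrobiopterin to do so. Nos3, the endothelial enzyme, and Nos1, the neuronal enzyme that is also made by cardiomyocytes, give small calcium-dependent amounts that act mostly through soluble guanylate cyclase and cyclic GMP. Nos2, the inducible enzyme, is switched on by bacterial products and cytokines in macrophages, vessel walls and heart muscle cells, and its output is known for the fall in vascular tone and cardiac contraction of sepsis. Cells that induce Nos2 often induce Gch1, Slc7a2 and Ass1 as well.

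Each value below is 1 merged log ratio per probe and contrast, which the labels describe as 4 replicates with dye swaps combined. It is read here as a log2 ratio of esmolol over its untreated partner, and the base of the logarithm is an assumption. No replicate values were analysed here, so no gene has a replicate error or a test, and "higher" and "lower" give the sign of the merged ratio. The only yardstick in the table is the SD between probes of 1 gene, pooled over all genes with more than 1 probe, which was on the log2 scale 0.11 in non-septic hearts, 0.24 in LPS hearts and 0.10 in CLP hearts. It covers neither animals nor hybridizations. The title of the CLP sample names the untreated hearts first, so its sign was turned. The series' design text makes no such exception, and every CLP direction below reverses if the column does not follow the order of its title. The table holds ratios alone, so levels of the genes, and of heart markers as a check of the tissue, cannot be given. In bulk heart RNA, fewer cells of a type and less RNA per cell cannot be told apart.

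Of the 10 genes, 9 were measured in non-septic hearts, 10 in LPS hearts and 9 in CLP hearts. At 1.5-fold, which is 0.585 on the log2 scale, 0 of 9 were past the threshold in either direction in non-septic hearts, where 0.460% of all named genes were (0.241% lower and 0.219% higher). In LPS hearts 2 of 10 were past it, against 4.32% of all named genes. Both were lower, Nos2 and Slc7a2, against 2.26% of all named genes, and none was higher, against 2.06%. In CLP hearts 1 of 9 was past it, against 0.952% of all named genes. This was Slc7a2, which was higher, against 0.819%, and none was lower, against 0.133%. The median log2 ratio of the 10 genes was -0.02 in non-septic, -0.19 in LPS and 0.09 in CLP hearts. The medians over all named genes were 0.001, 0.0001 and -0.0049. The gene with the lowest ratio was Nos2 in both the non-septic and the LPS contrast.

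**Figure D1:**
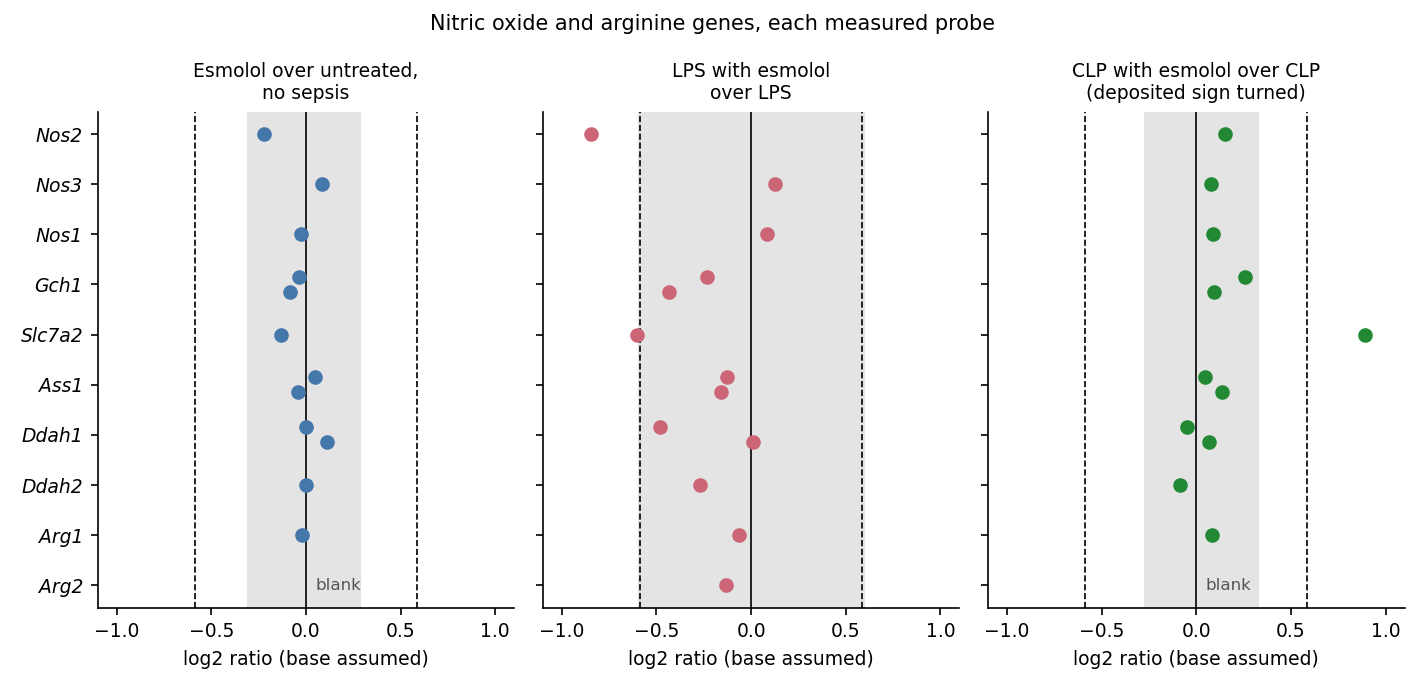
Log2 ratio (x axis, base assumed) of each measured probe of the 10 genes (rows) in the 3 contrasts (panels). Dashed lines mark 1.5-fold, grey bands hold the central 95% of all measured probes, and "blank" marks a gene without a value. Nos2 lies at -0.85 in LPS hearts, and Slc7a2 at -0.60 in LPS and 0.89 in CLP hearts, while the other points lie inside the dashed lines.

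Among the synthases, the inducible enzyme stood apart from the constitutive ones in LPS hearts. Nos2, with 1 probe (A_51_P163942), had a log2 ratio of -0.22 in non-septic, -0.85 in LPS and 0.15 in CLP hearts. The LPS value is 1.80-fold lower with esmolol and ranks 125 from the lowest among 17733 named genes. It is 3.57 times the SD between probes of a gene in that contrast. In non-septic hearts Nos2 was lower by less than 1.5-fold, yet only 4.45% of named genes had a lower ratio. In CLP hearts 9.54% of named genes had a higher ratio than Nos2.

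Nos3 (A_51_P139651) had log2 ratios of 0.08 in non-septic, 0.13 in LPS and 0.08 in CLP hearts. The measured probe of Nos1 (A_51_P160198) was at -0.03, 0.09 and 0.09 in the same contrasts, and its other probe was blank in all of them. All 6 of these values were smaller than the SD between probes of a gene. The log2 ratio of Nos2 minus that of Nos3 was -0.30 in non-septic, -0.98 in LPS and 0.08 in CLP hearts. These are differences between ratios of single probes, not between levels of the enzymes.

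Gch1 encodes GTP cyclohydrolase, the first and rate-limiting enzyme of tetrahydrobiopterin synthesis. Its 2 probes stood on the same side in every contrast. They were at -0.04 and -0.08 in non-septic hearts, at -0.23 and -0.43 in LPS hearts and at 0.26 and 0.09 in CLP hearts. The gene's log2 ratio in LPS hearts was -0.33 ± 0.14 (SD between probes, n = 2 probes), and 9.93% of named genes lay lower. In CLP hearts it was 0.18 ± 0.11 (SD between probes, n = 2 probes), and 7.67% lay higher. Neither value reached 1.5-fold.

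Ass1, argininosuccinate synthase, catalyses the first step by which citrulline is turned back into arginine. Its probes were at 0.05 and -0.04 in non-septic hearts, on both sides of 0. In LPS hearts they were at -0.13 and -0.16, and in CLP hearts at 0.05 and 0.14. As with Gch1, both probes were below 0 in LPS hearts and above 0 in CLP hearts. The gene's log2 ratio in LPS hearts, -0.15 ± 0.02 (SD between probes, n = 2 probes), was smaller in size than the SD between probes of a gene in that contrast.

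Gch1 and Ass1 are the genes of the 10 with 2 measured probes that all had the sign of Nos2 and Slc7a2 in LPS and in CLP hearts, and their promoters are shown for that reason. RefSeq promoter sequences of build GRCm38.p6, from 250 bases before to 50 bases after the start of the gene, were matched for 5 of the 10 genes: Nos1, Gch1, Ass1, Ddah1 and Ddah2. Capitals mark TGACG (the half-site of a cyclic AMP response element), CCAAT and GGGCGG (a GC box), each searched on both strands. The sequences are written 5′ to 3′ on the strand of the gene, at chr14:47189364-47189663 (minus strand) for Gch1 and chr2:31470020-31470319 (plus strand) for Ass1.
Gch1: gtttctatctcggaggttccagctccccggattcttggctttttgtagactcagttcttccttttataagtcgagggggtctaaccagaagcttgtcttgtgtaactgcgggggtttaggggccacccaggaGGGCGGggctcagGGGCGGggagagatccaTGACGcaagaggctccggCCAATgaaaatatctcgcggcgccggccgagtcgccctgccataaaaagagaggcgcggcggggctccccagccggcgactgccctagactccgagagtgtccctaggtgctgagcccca
Ass1: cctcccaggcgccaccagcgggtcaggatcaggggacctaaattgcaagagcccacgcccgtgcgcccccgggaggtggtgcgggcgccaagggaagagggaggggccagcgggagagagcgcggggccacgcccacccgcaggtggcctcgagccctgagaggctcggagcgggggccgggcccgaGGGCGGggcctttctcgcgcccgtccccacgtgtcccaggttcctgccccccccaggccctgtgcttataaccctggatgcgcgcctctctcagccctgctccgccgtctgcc

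The Gch1 promoter held TGACG at position -88 and CCAAT at position -70, counted from the gene's start with the base before it as -1, and GGGCGG at positions -118 and -105. In the rat, a cyclic AMP response element and a CCAAT box close to the start are known to act in the Gch1 promoter. The Ass1 promoter held GGGCGG at position -63 and neither of the other 2 motifs. Of the promoters not printed, that of Nos1 held TGACG on the other strand, at position -130. That of Ddah2 held 3 matches to GGGCGG. Of 32851 promoters of the same length, 20.8% held TGACG, 37.4% CCAAT and 35.7% GGGCGG. The full element TGACGTCA was in none of the 5 promoters and in 1.79% of all. None of the capitalised matches overlaps another. The interferon-type pattern TTCNNNGAA was in 8.30% of all promoters and, of the 5, in that of Ddah2. These matches describe letters in a window and not binding.

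Slc7a2 encodes the cationic amino acid transporter CAT2, which brings arginine into cells that have been activated. Its single probe (A_52_P77764) had a log2 ratio of -0.13 in non-septic, -0.60 in LPS and 0.89 in CLP hearts. The LPS value is 1.52-fold lower with esmolol, just past the threshold, and ranks 377 from the lowest of 17733 named genes. The CLP value is 1.86-fold higher and ranks 55 from the highest of 17339. It is 8.80 times the SD between probes of a gene in the CLP contrast. Slc7a2 is 1 of 42 genes, 0.246% of the 17089 measured in both, that were lower by 1.5-fold in LPS hearts and higher by 1.5-fold in CLP hearts, as titled. With its probe alone, no second measurement of the gene stands beside these values.

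Ddah1 and Ddah2 encode dimethylaminohydrolases, which break down asymmetric dimethylarginine, an internal inhibitor of the synthases. The probes of Ddah1 were at 0.0005 and 0.11 in non-septic hearts, at -0.48 and 0.01 in LPS hearts and at -0.05 and 0.07 in CLP hearts. They disagreed most in LPS hearts, where they lay 0.49 log2 units apart (SD 0.35, n = 2 probes), so the gene's median there, -0.24, lies between a probe near 0 and a lower one. Ddah2 (A_51_P341177) had log2 ratios of 0.001 in non-septic, -0.27 in LPS and -0.08 in CLP hearts. Its LPS value was lower than that of all but 13.8% of named genes, and it was the sole gene of the 10 below 0 in CLP hearts.

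The arginases split arginine into ornithine and urea and so draw on the same substrate. Arg1, the cytosolic enzyme of the liver and of some macrophages, had log2 ratios of -0.02 in non-septic, -0.06 in LPS and 0.08 in CLP hearts. All 3 were smaller than the SD between probes of a gene. Arg2, the mitochondrial enzyme, was blank in non-septic and CLP hearts and at -0.13 in LPS hearts. In LPS hearts the log2 ratio of Nos2 minus that of Arg1 was -0.79, and minus that of Arg2 -0.72.

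Over the 10 genes, 8 were below 0 in LPS hearts, where 8861 of 17733 named genes were, and Nos1 and Nos3 were the other 2. In CLP hearts 1 of 9 was below 0, against 52.1% of named genes. Signs were opposite in LPS and CLP hearts for 6 of the 9 genes measured in both, against 52.1% of named genes. Those 6 were Nos2, Gch1, Slc7a2, Ass1, Arg1 and Ddah1. For Ddah1 this holds for the median of its 2 probes alone, as neither probe changed sign. The first was at -0.48 in LPS and -0.05 in CLP hearts, and the second at 0.01 and 0.07. Between non-septic and LPS hearts, 5 of 9 had the same sign, against 53.5% of named genes. Whether the contrasts differ was not tested, and the opposite signs hinge on the direction of the CLP values.

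**Figure D2:**
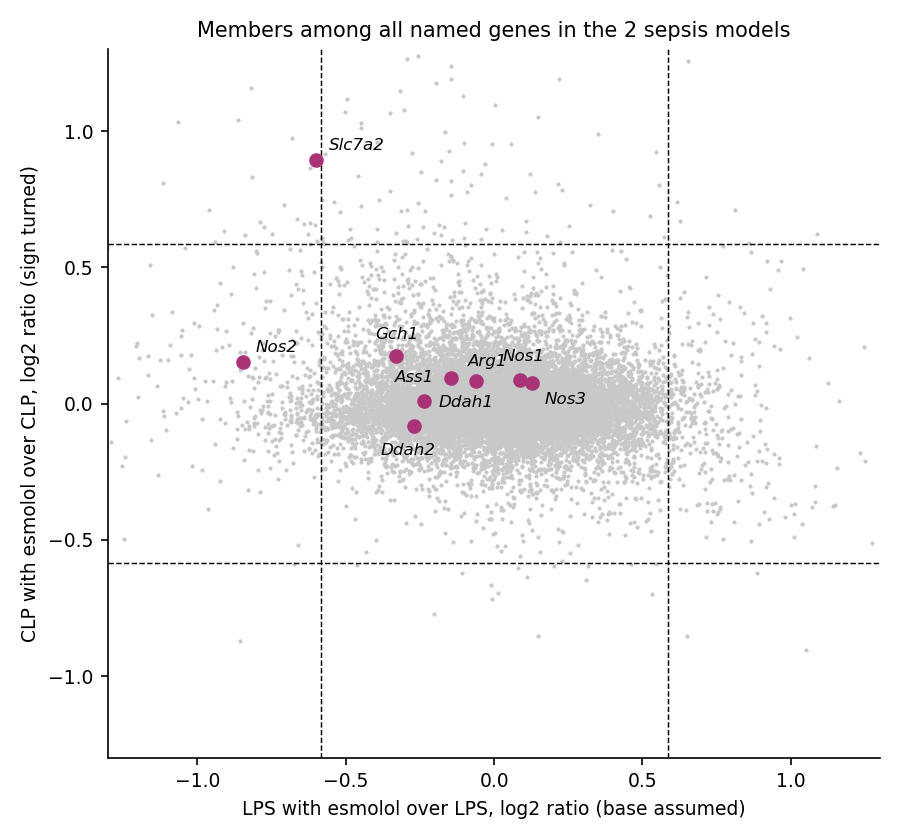
Log2 ratio in the LPS contrast (x axis) against that in the CLP contrast with the sign turned (y axis) for all named genes measured in both (grey) and for the 9 described genes measured in both (purple). Dashed lines mark 1.5-fold, and 53 of 17089 genes lie beyond the axes. Slc7a2 is at -0.60 and 0.89 in the upper left, Nos2 at -0.85 and 0.15, and the other 7 lie between the dashed lines.

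The 5 genes nearest to Nos2, by Euclidean distance over the 3 log2 ratios among 16975 named genes, were Kcna2 (distance 0.06), Mx2 (0.10), Ccnjl (0.10), Irf1 (0.11) and Irf8 (0.11). Their LPS ratios were -0.83, -0.77, -0.85, -0.92 and -0.78. That of Irf1 is the median of 3 probes that spread from -1.78 to 0.34. With 3 values per gene, and with no replicates, this likeness is a description.

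Beside the 10 stand further genes of cofactor synthesis and arginine supply. In LPS hearts 0 of 6 other tetrahydrobiopterin genes were past 1.5-fold, against 4.32% of all named genes. Their median was -0.14, with Gchfr, the feedback regulator that binds Gch1's enzyme, lowest (-0.46) and the recycling enzyme gene Qdpr highest (0.20). In non-septic hearts these genes ran from Pts (-0.08) to Pcbd1 (0.16), and in CLP hearts from Qdpr (-0.11) to Pcbd1 (0.05). Of the other arginine and citrulline transport and synthesis genes, 0 of 11 were past 1.5-fold in LPS hearts, against the same share, and 1 of 10 in CLP hearts, against 0.952% of all named genes. That gene was Slc7a7, a light chain of the exporter of basic amino acids (0.63 in CLP and -0.33 in LPS hearts), which had the signs of Slc7a2 in these contrasts and was at 0.05 in non-septic hearts, where Slc7a2 was below 0. Slc7a1, the broadly made arginine transporter CAT1, was lowest in LPS hearts (-0.44) with probes at -0.46 and -0.41, and was at 0.02 in CLP hearts. Slc7a3, another member of the same transporter family, was highest in LPS hearts (0.28) and lowest in CLP hearts (-0.12). In non-septic hearts the list ran from the ornithine carrier Slc25a15 (-0.19) to Otc (0.08).

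Genes that use arginine or ornithine had a median of -0.10 in LPS hearts. Of 14, 1 was lower by 1.5-fold, against 2.26% of all named genes, and 1 higher, against 2.06%. Sat1, the acetyltransferase that starts polyamine breakdown, was lowest (-0.81, probes at -0.92 and -0.70). Gamt, which completes creatine synthesis, was highest in LPS (0.72) and in CLP hearts (0.47). Sms was lowest in CLP hearts (-0.08), and the list ran from Aldh18a1 (-0.27) to Gamt (0.12) in non-septic hearts. Arginine methyltransferases, some of which give rise to the inhibitors cleared by Ddah1 and Ddah2, were listed with a transaminase. None of these 8 genes was past 1.5-fold in LPS hearts, against 4.32% of all named genes. They ran from Prmt6 (-0.26) to Prmt5 (0.16) in LPS, from Prmt7 (-0.07) to Prmt1 (0.22) in CLP and from Prmt1 (-0.24) to Prmt6 (0.07) in non-septic hearts.

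Among genes for partners of the synthases, Cav3, the muscle caveolin, was lower in LPS hearts (-0.63) and Dynll1, a dynein light chain that binds the neuronal enzyme, was higher (0.62, probes at 0.45 and 0.79). Cav1, the endothelial caveolin that holds Nos3's enzyme inactive, was at 0.56 in LPS and -0.29 in CLP hearts, where it was lowest. Hsp90aa1, a chaperone of the endothelial enzyme, was at -0.66 in non-septic hearts, at 0.01 in LPS hearts and highest in CLP hearts (0.27). It was the 1 gene of 10 past 1.5-fold in non-septic hearts, against 0.460% of all named genes. In non-septic hearts 8 of 10 partner genes were below 0, against 49.5% of named genes. Their median was -0.14, with Cav1 highest (0.09). Of the genes that carry the signal through cyclic GMP, 1 of 10 was past 1.5-fold in LPS hearts, against 4.32% of all named genes. This was Pde2a, a phosphodiesterase stimulated by cyclic GMP (0.92, probes at 0.89 and 0.94), which was lowest in CLP hearts (-0.31). Gucy1a1, a subunit of guanylate cyclase, the nitric oxide receptor, was highest in non-septic hearts (0.13). It was at 0.35 in LPS hearts, with 4 probes from 0.15 to 0.60, and at -0.18 in CLP hearts. Kcnmb1 was lowest in LPS hearts (-0.25), Mrvi1, a substrate of the cyclic GMP kinase, highest in CLP hearts (0.37), and Vasp lowest in non-septic hearts (-0.13).

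Genes of nitric oxide removal and linked oxidases were past 1.5-fold in CLP hearts for 2 of 13, against 0.952% of all named genes. Cybb, the catalytic subunit of the phagocyte oxidase, was at 1.28 ± 0.66 (SD between probes, n = 2 probes) and the heme oxygenase gene Hmox1 at 0.99. In LPS hearts Cybb was lowest (-0.26) and the globin gene Ngb highest (0.58). Adh5 was lowest in CLP hearts (-0.09), and non-septic values ran from Sod3 (-0.10) to Ngb (0.14). A further list held sensors of LPS and genes upstream of Nos2. Il4ra and Stat6 were among them, so it is not a list of inducers alone. Its median was -0.21 in LPS hearts, with 13 of 18 below 0 against 8861 of 17733 named genes. In CLP hearts the median was 0.14, with 7 of 18 below 0 against 9030 of 17339 named genes. Irf1, an interferon-induced activator of Nos2, was the 1 gene of 18 past 1.5-fold in LPS hearts (-0.92), against 4.32% of all named genes. However, its 3 probes there spread from -1.78 to 0.34. Irf1 was also lowest in non-septic hearts (-0.16), where Cebpb was highest (0.42). Stat6 was highest in LPS hearts (0.35). In CLP hearts Il1b, a cytokine that induces Nos2, was highest (0.84) and Klf6 lowest (-0.12). Of the cytokine genes in LPS hearts, Il1b (0.12) and Tnf (0.16) were above 0 and Ifng (-0.25) was below 0.

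**Figure D3:**
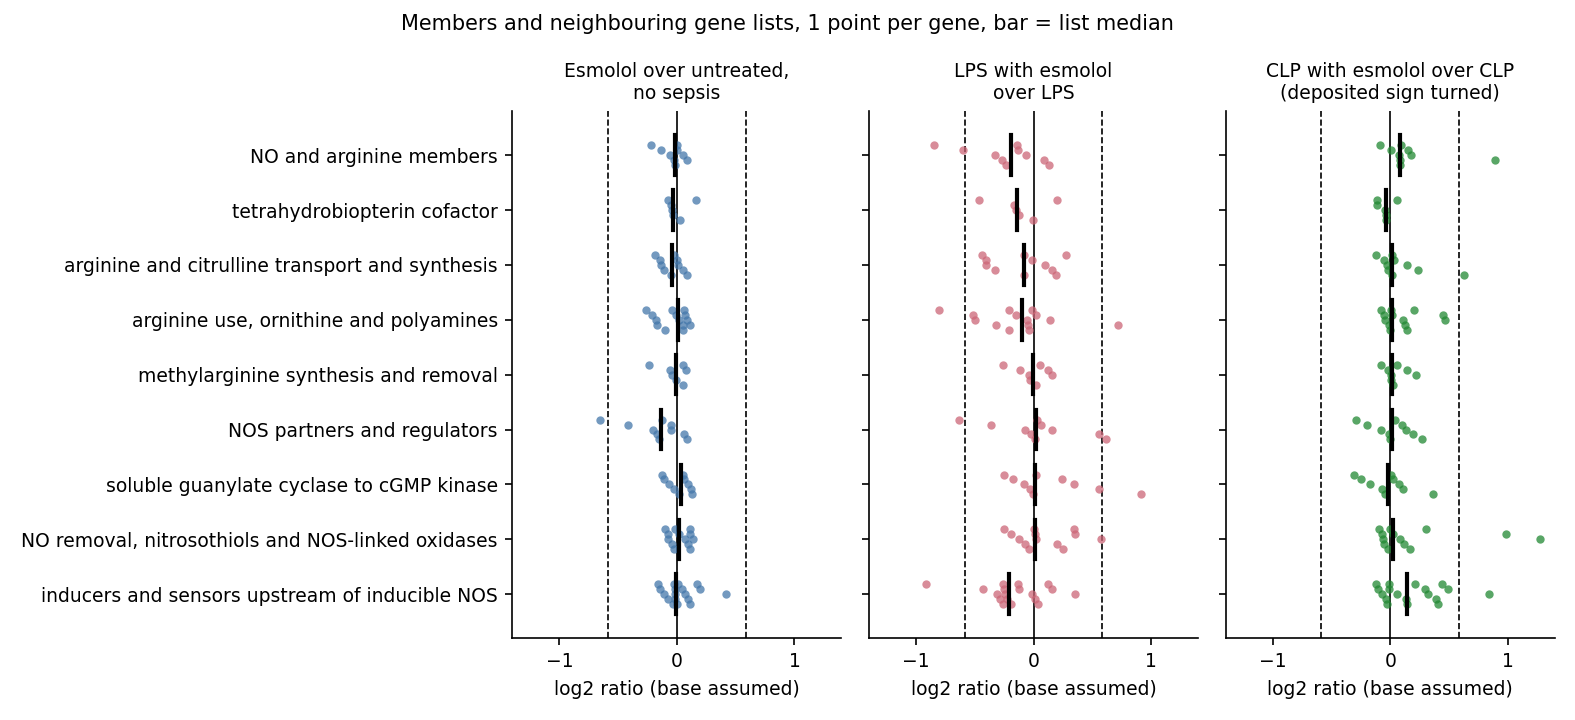
Log2 ratio (x axis, base assumed) of each measured gene of the 10 described genes and of 8 neighbouring lists (rows) in the 3 contrasts (panels). Points are genes, bars list medians, dashed lines 1.5-fold and the thin line the median of all named genes. The medians of the 10 genes (-0.19) and of the inducers and sensors upstream of Nos2 (-0.21) are the lowest in LPS hearts. The same lists have the highest medians in CLP hearts (0.09 and 0.14).

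Markers of other cells and of the atria had ratios away from 0 in the same contrasts, and their part in the values above was not tested. A single exact value recurred at 359 probes in non-septic, 526 in LPS and 538 in CLP hearts. None of the 14 probes of the nitric oxide and arginine genes was on it, but probes of some markers were. Atrial markers had a median of -0.88 in LPS hearts. Of 8, 5 were lower by 1.5-fold, against 2.26% of all named genes: Myl7 (-1.23), Sln (-1.20), Dkk3 (-1.01), Myl4 (-0.98) and Bmp10 (-0.79). The highest was Clu (-0.04), whose single probe was on the recurring value, as was 1 of 2 probes of Nppa. Without such probes the median was -0.98, over 7 genes. In CLP hearts 8 of 8 atrial markers were above 0, against 8299 of 17339 named genes, with a median of 1.83. All but Clu (0.08) were past 1.5-fold there, against 0.952% of all named genes. They were Bmp10 (2.69), Sln (2.42), Myl7 (2.25), Dkk3 (2.11), Myl4 (1.55), Nppa (0.78) and Stard10 (0.60). In non-septic hearts the atrial median was 0.51, from Bmp10 (0.03) to Sln (0.80). Myl4 (0.70), Myl7 (0.68) and Dkk3 (0.61) were past 1.5-fold there as well, against 0.460% of all named genes. Slc7a2 had the sign of the atrial markers in LPS and CLP hearts and the opposite sign in non-septic hearts. So did Nos2, Gch1 and Arg1. By the medians of their probes, Ass1 and Ddah1 had the sign of the atrial markers in all 3 contrasts. However, the probes of Ass1 lay on both sides of 0 in non-septic hearts. Those of Ddah1 did so in LPS and in CLP hearts. Macrophage markers were above 0 for 8 of 9 genes in LPS hearts, against 8869 of 17733 named genes. Their median was 0.56, with Cx3cr1 lowest (-0.36). Cd163 (0.89), Mrc1 (0.81), C1qa (0.75) and C1qc (0.65) were past 1.5-fold, against 4.32% of all named genes. In CLP hearts 8 of 9 were above 0, against 8299 of 17339 named genes. The median there was 0.22, from Cd163 (-0.10) to Adgre1 (0.92). Adgre1 and Itgam (0.80) were the 2 of 9 past 1.5-fold, against 0.952% of all named genes. In non-septic hearts the median was 0.12, from Adgre1 (-0.08) to Cd163 (0.48).

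Of 10 endothelial markers, 7 were above 0 in LPS hearts, against 8869 of 17733 named genes. Set beside Nos3, these markers had a median of 0.21 there, from Tie1 (-0.29) to Erg (0.48). Their medians were -0.01 in CLP hearts, from Kdr (-0.44) to Emcn (0.32), and 0.04 in non-septic hearts, from Kdr (-0.32) to Vwf (0.17). Neutrophil markers had medians of 0.02 in non-septic, -0.02 in LPS and -0.18 in CLP hearts. They ran from Ngp (-0.34) to S100a9 (0.24) in non-septic hearts and from Camp (-0.35) to Retnlg (0.65) in LPS hearts. Retnlg was the 1 gene of 9 higher by 1.5-fold in LPS hearts, against 2.06% of all named genes. In CLP hearts they ran from Retnlg (-0.85) to Elane (0.04). Retnlg and S100a8 (-0.59) were the 2 of 8 lower by 1.5-fold there, against 0.133% of all named genes. Of 6 blood markers in LPS hearts, 3 were past 1.5-fold, against 4.32% of all named genes: Ppbp (-1.81), Alas2 (-1.25) and Pf4 (-0.61). Blood markers had a median of -0.48 there, with Itga2b highest (-0.16). They ran from Gp9 (-0.35) to Slc4a1 (0.06) in non-septic and from Alas2 (-0.23) to Pf4 (0.22) in CLP hearts. Ventricular muscle markers ran from Actc1 (-0.21) to Ryr2 (0.15) in non-septic hearts, from Tnni3 (-0.05) to Tnnt2 (0.62) in LPS hearts and from Myl2 (-0.15) to Ryr2 (-0.01) in CLP hearts. The LPS value of Tnnt2 lies between a probe at 1.28 and a probe on the recurring value, at -0.04. Of these 10 genes, 5 had a probe on the recurring value in non-septic, 8 in LPS and 7 in CLP hearts, so their ratios near 0 say little.

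**Figure D4:**
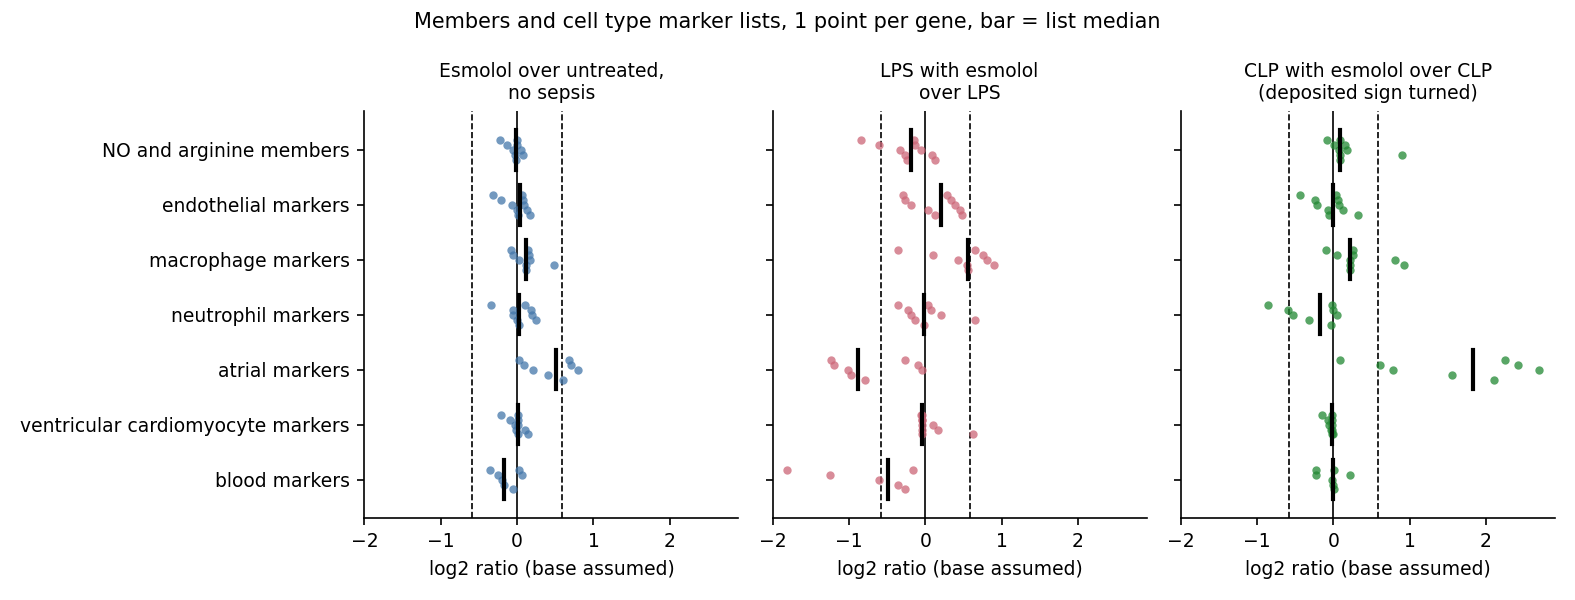
Log2 ratio (x axis, base assumed) of the 10 described genes and of 6 cell type marker lists (rows) in the 3 contrasts (panels). Points are genes, bars list medians, dashed lines 1.5-fold and the thin line the median of all named genes. Atrial markers have the most distant medians, at 0.51 in non-septic, -0.88 in LPS and 1.83 in CLP hearts, and macrophage markers have a median of 0.56 in LPS hearts.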

How the data were processed

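Total RNA from heart was hybridized on 2-colour oligonucleotide arrays with Agilent probe names, per the labels. The authors deposited 1 value per probe and contrast, with 4 replicates and their dye swaps merged, per the labels' descriptions. The deposited values were read as log2 ratios; no source names the base, and base 2 is an assumption. Scanner, background correction, normalization and filtering steps are in none of the sources used here, and depth has no counterpart in these ratios, whose precision the number of arrays limits. Of 41174 probes, 14.4%, 15.2% and 18.6% were blank in non-septic, LPS and CLP hearts. Column medians as deposited were 0.0044, 0.0083 and 0.0072. The CLP sign was turned. Genes were named from the platform annotation: 32664 probes named 1 gene, 45 several (left out) and 8465 were unnamed here. Symbols were updated by gene ID for 32524 probes through RefSeq (GRCm38.p6, used for names). The median of its probes stands for a gene, and genes from 1.5-fold on were counted. Named genes are the 10, each probe shown, the genes past 1.5-fold or at the ends of each of 14 other lists, and the 5 nearest to Nos2. Members and lists were chosen with earlier results of these data known. Alternatives were the log base, fold threshold, centring, recurring value, treatment of several probes, genes measured in all 3 contrasts and the CLP sign. Python 3.11.15, pandas 2.3.3 and numpy 2.4.6 were used.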

Additional observations from a re-analysis of the deposited data

Results flagged for a closer look

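Some genes were past 1.5-fold on opposite sides in a pair of contrasts, and none of these differences was tested. Of the 10 nitric oxide and arginine genes this held for Slc7a2, with log2 ratios of -0.60 in LPS and 0.89 in CLP hearts, and it hinges on the turned CLP sign. Among marker genes, Sln (0.80 in non-septic, -1.20 in LPS and 2.42 in CLP hearts), Myl7 (0.68, -1.23 and 2.25 in the same order), Myl4 (0.70, -0.98 and 1.55) and Dkk3 (0.61, -1.01 and 2.11) were on opposite sides in non-septic and LPS hearts, where no sign was turned, and in LPS and CLP hearts. Bmp10 was at -0.79 in LPS and 2.69 in CLP hearts, and Retnlg, a neutrophil gene, at 0.65 and -0.85.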

How the results depend on the processing

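The counts past 1.5-fold and the medians of the 10 genes moved with the log base, the threshold and the CLP sign, and with none of the other alternatives by more than the SD between probes. Read as log10, 1 gene in non-septic and 5 in LPS hearts were past 1.5-fold and the medians were -0.63 in LPS and 0.29 in CLP hearts. At 2-fold, 0 genes were past the threshold in LPS and 0 in CLP hearts. The shares of all named genes under the log10 reading and at 2-fold are not given here. These counts therefore have no background beside them. With the CLP sign unturned, the CLP median was -0.087 and Slc7a2 was at -0.89. Nos2 in LPS hearts was at -1.22 read as natural logarithms and at -2.81 read as log10. Taking the probe farthest from 0 put Ddah1 in LPS hearts at -0.48. Without Nos2 or without Slc7a2, chosen after seeing the data, the LPS median was -0.15 in each case. Leaving recurring-value probes out of the other lists was also chosen after seeing the data. No replicate could be left out of merged values. No paired analysis was possible because each contrast has 1 merged column. A single probe stands behind Nos2, Nos3, Slc7a2, Arg1, Arg2 and Ddah2, and the measured value of Nos1.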
